A study of Mus musculus with 6 samples.

Results

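Of 39430 array probes, 670 were detected on exactly 2 of 3 mouse skin tumor arrays and on none of 3 healthy skin arrays. A probe is a designed 60-base DNA strand on the array that binds 1 transcript sequence. It was counted as detected where the scanner software marked more than 0.5 of its spots as well above background. Probes of the A_30_P series were left out, and the array holds 55681 probes with them. The 670 probes were selected on the measured detection marks of all 6 arrays, so their levels are given as a description, and no test of tumor against healthy skin is read from them.

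All samples were biopsies from female FVB/N mice. The 3 tumors, labelled as cutaneous squamous cell carcinoma (cSCC), came from skin painted with the mutagen DMBA and then with the phorbol ester TPA (also written PMA) for 6 weeks. Another DMBA dose and 14 more weeks of TPA followed. The 3 healthy skins received acetone. No array of treated skin without a tumor entered the comparison, so tumor and treatment cannot be told apart. The labels do not say that the biopsies came from separate mice, so any spread between arrays may be technical in part. In bulk tissue, fewer cells of a type and less RNA per cell cannot be told apart.

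The DMBA and TPA protocol is a classical model of multistage skin carcinogenesis: the mutagen leaves lasting changes in epidermal cells, and repeated promotion with TPA drives inflammation and the outgrowth of papillomas, some of which become carcinomas. Tumors raised in this way arise separately, so a transcript can be present in some of them and not in others. A transcript near an array's detection limit can likewise be marked as detected on some arrays and not on others. The values of each array are therefore given below beside that array's limit.

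The arrays were not equally sensitive. The share of spots well above background was 48.7% on tumor 1 and between 57.4% and 65.4% on the other 5 arrays. The median local background was 85 intensity units on tumor 1 and 23 to 26 on the others. Levels are log2 processed signals minus the array's 75th percentile, so 0 is the 75th percentile and each unit is a doubling. On this scale the lowest level of any probe marked as well above background was -3.64 on tumor 1, -5.75 on tumor 2 and -5.94 on tumor 3. It was -4.98, -5.24 and -4.28 on healthy skin 1, 2 and 3. The levels of unmarked probes also differed between arrays. A probe of Mgam marked on no array was at -7.14, -7.31 and -6.49 in healthy skin 1, 2 and 3. In tumors 1, 2 and 3 it was at -5.71, -7.84 and -8.03. Between unmarked arrays a higher level therefore does not show more transcript.

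The sequences of the probes on which the description turns are shown first, as 30 of the 60 bases deposited for each. Crisp1, 2 probes of Calca and Prl7b1 lacked tumor 3 or tumor 2. Both probes of Klrc1, which do not overlap, and 1 of Klrc3 lacked tumor 1, as did Stra8 and Prl2a1, whose levels in the tumors that had them were far apart. All 9 stretches start at the first base of the probe and are written 5′ to 3′ in lower case.
Crisp1 (chr17:40435143-40438282, minus strand): tattgtcctgttggcaattatcaaggaagg
Calca (chr7:121775204-121775263, minus strand): tattgtgcatcgtgttgtatgtgactctgt
Calca (chr7:121776948-121777007, minus strand): aagaatggtatctgaaatccccagtgggtg
Prl7b1 (chr13:27693782-27693841, minus strand): ggttacatgtgccaagactcagtaaaccaa
Klrc1 (chr6:129616237-129616296, minus strand): atactttttcctgtttcacagaatgacttc
Klrc1 (chr6:129628315-129628374, minus strand): ggcctcatctgttttgtcttaattgtcgct
Klrc3 (chr6:129589103-129589162, minus strand): acagcagacagctgtacaactttacatcca
Stra8 (chr6:34889237-34889296, plus strand): gctagagttatactgccttgtctttcaaga
Prl2a1 (chr13:27900454-27900513, plus strand): cttttcatcatatcttcgtctgagccactg

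Some of the 670 probes share sequence with each other and are not separate measurements. Over all pairs, 5 shared a run of at least 20 identical bases on the same strand of the probe. The longest runs between the 2 vomeronasal receptor probes Vmn1r199 and Vmn1r207 and between Speer4d and the predicted gene Gm9758 were 27 and 34 bases. Capitals mark the shared run within the 30 bases shown.
Vmn1r199 (chr13:22475277-22475336, plus strand, bases 3 to 32): ttGTGCCTTTTCCCTAATTTTAAGTCTCTc
Vmn1r207 (chr13:22817687-22817746, minus strand, bases 1 to 30): GTGCCTTTTCCCTAATTTTAAGTCTCTttt
Speer4d (chr5:15128398-15129200, plus strand, bases 12 to 41): GAGAACAGCAATCTTGAGACTCCAGAATAT
Gm9758 (chr5:14911341-14911400, minus strand, bases 29 to 58): GAGAACAGCAATCTTGAGACTCCAGAATAT
The level of Vmn1r199 was -4.95, -4.88 and -4.79 in tumors 1, 2 and 3, and that of Vmn1r207 was -5.56, -4.91 and -4.73. Speer4d, of a family of testis-expressed genes, was at -3.37, -4.39 and -3.51, and Gm9758 at -4.72, -4.07 and -3.56. Both pairs lacked tumor 1 by the detection mark, although Speer4d had its highest tumor level there. All positions are those of the array's own annotation in mouse build mm9, and whether a probe lies in coding or untranslated sequence was not determined here. The Crisp1 and Speer4d probes span more genomic bases than their 60, as probes across a splice junction do.

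The 670 probes fell very unevenly over the tumors. The missing array was tumor 1 for 621 probes (92.7%), tumor 2 for 22 (3.28%) and tumor 3 for 27 (4.03%). Of 2923 probes on all 3 healthy skin arrays and 2 tumor arrays, which the choice did not take, 2875 (98.4%) lacked tumor 1. Another 237 probes were detected on all 3 tumor arrays and no healthy one, and 1075 on 1 tumor array alone. In the mirrored pattern, on 2 healthy skin arrays and no tumor array, there were 295 probes, of which 169 lacked healthy skin 3, 82 healthy skin 1 and 44 healthy skin 2.

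Most of the 621 probes that lacked tumor 1 lay below what tumor 1 could register. For 425 of them (68.4%) the levels on tumors 2 and 3 were both under -3.64, for 135 only 1 was, and for 61 both were above it. On tumor 1 the signal was the lowest of the 3 tumors for 393 of the 621 probes and not the lowest for 228. In the authors' deposited table of log2 values it was the lowest for 408. A weaker criterion of the scanner software, a signal significantly above background, was met on tumor 1 by 378 of them (60.9%). The part of the higher background of tumor 1 in this class was not tested beyond these counts.

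Where tumor 2 was missing, its signal was the lowest of the 3 tumors for 21 of 22 probes, and where tumor 3 was missing it was the lowest for all 27. Tumor 1 had to be detected for these probes, so their levels on tumor 1 were at or above -3.64 by the choice itself, and the choice leaves these counts little room to differ. Their median level on tumor 1 was -2.63 where tumor 2 was missing and -2.62 where tumor 3 was missing. The median local background at these spots of tumor 1 was 82.5 and 87.5 intensity units, against 85 over all probes.

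A stricter reading asks whether both detecting tumors lay at least 2 log2 units above the missing one, with the lowest detectable level standing in where the missing array's own signal was below it. This was counted for 14 of the 670 probes: 3 that lacked tumor 1, 4 that lacked tumor 2 and 7 that lacked tumor 3. One of the 7, a transcript without a symbol on chromosome 4, had its spot on tumor 1 left out as an outlier, so that for it the criterion was shown for tumor 2 only and not for both detecting tumors. At 1 unit the counts were 16, 5 and 13. Under median, quantile, normexp and the authors' own processing the number at 2 units was 17, 14, 3 and 5.

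The probes nearest to the limit had these levels. The lowest detecting levels inside the set were -5.92 for an unnamed transcript and -5.87 for Fut4, a fucosyltransferase, both on tumor 2 or 3. Just outside, Prl8a6 at -5.39, Nlrp3 at -5.41 and Col25a1 at -5.42 had 1 detected tumor array and were not marked on another at these levels.

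Among the probes that lacked tumor 3, Crisp1 differed by far the most between tumors. Crisp1 encodes a cysteine-rich secretory protein known from the epididymis and from sperm. Its level was 3.47 in tumor 1, 2.42 in tumor 2 and -6.18 in tumor 3, and -4.87, -7.42 and -6.48 in healthy skin 1, 2 and 3. Tumors 1 and 2 were thus above the 75th percentile of their arrays, while tumor 3 lay within the range of the healthy skins. The signal of the lower detecting tumor, tumor 2, was at least 328-fold above tumor 3, a bound set by the lowest signal well above background on tumor 3. In the authors' deposited table the Crisp1 levels were 12.61, 11.68 and 5.51 in the 3 tumors and 4.78 to 5.79 in healthy skin. The measured difference of tumor 2 over tumor 3 was 8.60 log2 units on the scale used here, 6.07 with normexp correction and 6.17 in the authors' deposited table, so the folds below hold for the background-subtracted signals.

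Among the named probes of this class were also Ttc36, Isl2 and Nkx2-9. Ttc36, a tetratricopeptide repeat gene, was at -2.26 in tumor 1, -1.29 in tumor 2 and -6.35 in tumor 3, against -7.29 to -6.40 in healthy skin. Its signal in tumor 1 was at least 12.8-fold above tumor 3. Isl2, a LIM-homeobox factor of motor neurons, was at -3.12, -1.70 and -6.03 in tumors 1, 2 and 3 with healthy skin 3 the highest of the healthy skins at -4.15 and healthy skin 2 at -4.98. Tumor 1 and tumor 2 were above all healthy skins for Isl2. Tumor 3 and the healthy skins were not marked as detected for it, so their order is not read. The homeobox gene Nkx2-9 was at -2.90, -3.92 and -6.02 in tumors 1, 2 and 3, with healthy skin between -7.32 and -6.48.

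Krt76 is a keratin of the hard palate and other suprabasal oral epithelium. Its level was -0.03 in tumor 1, -3.78 in tumor 2 and -6.53 in tumor 3. Healthy skin 1, 2 and 3 lay at -7.21, -7.28 and -6.49, so only tumors 1 and 2 stood above them. Krt76 and Bpifb1 were the 2 probes of the mucosal and simple epithelial list among the 670, of 46 on the array. Bpifb1, a secreted airway protein, lacked tumor 1 and was at -5.49 in both other tumors.

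Gcnt3, a mucin-type glycan branching enzyme, was at -2.14, -4.28 and -6.33 in tumors 1, 2 and 3. Srd5a2, a steroid 5-alpha reductase that makes dihydrotestosterone, was at -2.37, -4.30 and -7.01. Tumor 1 was the highest and tumor 3 the lowest for both genes, an order that the choice left little room to differ. The signal in tumor 2 was at least 3.16-fold above tumor 3 for Gcnt3 and at least 3.12-fold for Srd5a2.

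Calca encodes calcitonin and, by alternative splicing, the neuropeptide CGRP. Both of its probes were among the 670 and lacked tumor 3. The first probe shown above was at -2.94 in tumor 1, -5.15 in tumor 2 and -8.07 in tumor 3, with healthy skin at -7.17, -7.37 and -6.34. The other was at -1.93, -5.14 and -8.16 in tumors 1, 2 and 3, with healthy skin at -6.75, -6.49 and -4.65. The 2 probes share no run of more than 5 bases. Tumor 1 had to be detected and tumor 3 unmarked for both, so the choice left their shared order of tumors little room to differ. Tumor 2 was less than 1 unit above its own limit for both, and for the second probe healthy skin 3 stood above tumor 2.

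For 4 further genes of this class the level in tumor 2 was less than 1 unit above its limit. Tinag, a basement membrane antigen of kidney tubules, was at -2.25, -4.99 and -7.96 in tumors 1, 2 and 3. The formyl peptide receptor Fpr3 was at -1.45, -5.01 and -5.95, and the acid-sensing ion channel Asic5 at -3.13, -4.99 and -6.31. Ccne2, cyclin E2, was at -2.70, -5.69 and -6.22 and was the only probe of the 50 on the mitosis and DNA replication list. All 4 were highest in tumor 1, where detection itself took a level of at least -3.64. For Fpr3, Asic5 and Ccne2 healthy skin reached -5.37, -5.08 and -5.93. Tumor 2 and healthy skin were less than 1 unit apart for these 3 genes.

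Among the 22 probes that lacked tumor 2, 4 met the 2-unit criterion, and 3 of them have names. Prl7b1 is a placental member of the prolactin family. Its level was -2.82 in tumor 1, -6.35 in tumor 2 and -1.61 in tumor 3, and -7.26, -7.52 and -6.54 in healthy skin 1, 2 and 3. Tumors 1 and 3 were above every healthy skin, and the signal in tumor 1 was at least 7.60-fold above tumor 2. Defb34, a beta-defensin, was at -2.58, -5.67 and -3.22 in tumors 1, 2 and 3, against -6.67 to -6.06 in healthy skin. Ferd3l, a basic helix-loop-helix factor, was at -2.49, -7.40 and -3.45, against -7.28 to -6.45.

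For the next genes of this class tumor 1 was above tumor 3. The lowest detectable level was -3.64 on tumor 1 and -5.94 on tumor 3, so the choice favoured this order without requiring it. Gipr, the receptor of the incretin hormone GIP, was at -3.16, -6.19 and -4.57 in tumors 1, 2 and 3. Pfkfb4, a regulator of glycolysis, was at -3.60, -6.65 and -4.94. A further Pfkfb4 probe was detected on all 6 arrays, with tumor 2 again the lowest tumor. Tbx20, a cardiac T-box factor, was at -0.58, -7.13 and -5.49 in tumors 1, 2 and 3. Tumor 1 alone stood far above healthy skin for Tbx20, where healthy skin 3 was at -5.07, above tumor 3. Dnase2b and Spaca1, a sperm acrosome gene, were at -5.04 and -5.48 in tumor 3, less than 1 unit above its limit of -5.94.

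Among probes that lacked tumor 1 were 7 of natural killer cell receptors. These C-type lectin receptors, encoded in the natural killer gene complex of chromosome 6, read class I molecules or their relatives on other cells and inhibit or activate the killer cell. Klrc1 encodes the inhibitory receptor NKG2A. Its first probe shown above was at -4.26 in tumor 1, -0.94 in tumor 2 and -0.61 in tumor 3, and at -5.73, -6.10 and -6.50 in healthy skin 1, 2 and 3. Tumors 2 and 3 were well apart from the other 4 arrays, and the signal in tumor 2 was at least 6.49-fold above tumor 1. The other Klrc1 probe was at -5.93, -4.29 and -3.32 in tumors 1, 2 and 3. Its level in tumor 2 was under the limit of tumor 1, -3.64. Both probes were chosen as lacking tumor 1, so the second is not read as a separate check of the first.

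Klrc3, which encodes NKG2E, was at -5.65, -2.74 and -1.53 in tumors 1, 2 and 3. Healthy skin lay at -7.27, -5.81 and -6.50. The 2 further probes of Klrc3 on the array were detected on no array. The other receptors lay under the limit of tumor 1 on both detecting tumors, apart from Klra7 on tumor 2. Klri2 was at -4.71 and -5.04 in tumors 2 and 3, Klra5 at -4.18 and -4.57, Klra6 at -4.81 and -5.23, and Klra7 at -3.61 and -4.13. For Klra5 and Klra6 tumor 1 had the highest signal of the tumors, at -3.91 and -3.50, although it was not marked as detected. A further Klra5 probe was detected on all 3 tumor arrays and no healthy skin array, at -2.03, -2.64 and -3.13 in tumors 1, 2 and 3. A further Klra7 probe was detected on all 6 arrays, at 0.76, 1.83 and 1.43 in tumors 1, 2 and 3. In healthy skin 1, 2 and 3 it was at -3.34, -2.51 and -1.46. Another Klra7 probe was detected on 1 tumor array alone, and another on no array.

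In all, 7 of the 90 probes of natural killer lectin receptors were among the 670 (7.78%), beside 1.7% of all probes. Their 60-base sequences shared no run of more than 8 bases pairwise. Together with Olr1 and a transcript without a name, 6 of these 7 probes formed a stretch of 8 probes on chromosome 6 between positions 129435316 and 129963408, in which no neighbours were more than 200 kb apart. Of the T and natural killer cell markers, 5 of 44 probes (11.4%) were among the 670: Gzmf, Ifng, Tigit, Ctla4 and Cd8b1. All 5 lacked tumor 1. The summed level of the 35 marker genes was 5.09 in tumor 1, 5.26 in tumor 2 and 4.998 in tumor 3, and 3.78 to 5.09 in healthy skin, so the groups overlapped, and 2 of the 35 genes were detected on no array. Among the tumors the lowest summed level was that of tumor 3, and in such sums of signals the brightest genes weigh most. The part of cell content in the receptor levels was not tested.

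The cytokine and cytotoxic genes did not follow one tumor. Ifng, the interferon of T and killer cells, was at -4.54 in tumor 1, -1.57 in tumor 2 and -5.63 in tumor 3, with healthy skin at -5.82, -5.80 and -6.54. It was 16.7-fold higher in tumor 2 than in tumor 3. On tumor 1 exactly 0.5 of its 2 spots were marked, so it missed the choice's threshold by the smallest step. Csf2, which encodes GM-CSF and had 10 spots per array, was at -5.71, -1.34 and -4.09 in tumors 1, 2 and 3, against -7.09 to -5.93 in healthy skin. Fasl, the ligand of the death receptor Fas, was at -5.92, -2.75 and -5.14. These 3 genes were highest in tumor 2.

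Granzymes are proteases that killer cells release into their targets. Gzmg was at -5.78, -4.91 and -1.10 in tumors 1, 2 and 3, and its neighbour Gzmf at -5.75, -4.64 and -2.69. Healthy skin lay at -7.15, -7.37 and -5.50 for Gzmg and at -7.23, -7.36 and -6.53 for Gzmf. Both were highest in tumor 3, by 14.0-fold over tumor 2 for Gzmg, and the 2 probes share no run of more than 8 bases.

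Other immune ligands and receptors differed less between tumors 2 and 3. Il23a, a subunit of interleukin-23, was at -4.40, -3.26 and -3.16 in tumors 1, 2 and 3. Tnfsf11, which encodes RANKL, was at -3.91, -3.29 and -1.66, and the OX40 ligand Tnfsf4 at -5.04, -2.22 and -3.96. Tigit, an inhibitory receptor of T cells, was at -3.66, -2.10 and -3.33, with tumor 1 at the edge of its own limit. All 4 genes were named because tumors 2 and 3 stood at least 2 units above every healthy skin, so this is no finding about them. The highest healthy skin level was -5.37, for Tnfsf11. Tumor 1 and the healthy skins were not marked as detected for these genes, so their order is not read. In the cytokine list 7 of 106 probes (6.60%) were among the 670, Il20 being the seventh, and in the chemokine list 1 of 71 (1.41%), Ccr1, beside 1.7% of all probes.

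Several genes known from myeloid cells were highest in tumor 3. Mmp12, the elastase of macrophages, was at -3.47 in tumor 1, -1.93 in tumor 2 and 1.43 in tumor 3, and at -7.20, -5.44 and -6.49 in healthy skin. It was 10.3-fold higher in tumor 3 than in tumor 2, and both of these tumors stood above every healthy skin. A further Mmp12 probe was detected on 1 tumor array, with levels of -3.56, -7.82 and -2.90 in tumors 1, 2 and 3. Olr1, a scavenger receptor for oxidised lipoprotein, was at -3.60, -3.04 and 0.05, and 8.46-fold higher in tumor 3 than in tumor 2.

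Trem3, an activating receptor of neutrophils and macrophages, was at -3.60, -3.86 and -1.25 in tumors 1, 2 and 3. Healthy skin lay at -7.23, -7.36 and -6.52, and tumor 1 had a higher Trem3 signal than the detected tumor 2. Its neighbour Treml2 was at -4.95, -4.50 and -2.77. Ccr1, a chemokine receptor, was at -5.68, -4.53 and -2.69, and Siglecf, a sialic acid receptor of eosinophils, at -5.80, -4.63 and -2.67. Atp6v0d2, a proton pump subunit of osteoclasts and macrophages, was at -5.73, -4.46 and -1.46. All 5 were highest in tumor 3.

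Summed levels of marker lists of these cells are given beside these genes. The summed level of 28 macrophage and monocyte markers was 10.4, 9.89 and 9.74 in tumors 1, 2 and 3 and 9.86 to 10.5 in healthy skin, so the groups overlapped. That of 26 neutrophil markers was 10.1, 9.74 and 10.3 in the tumors and 7.95 to 8.30 in healthy skin. No gene of either list was undetected on all 6 arrays. Of the macrophage probes 1 of 37 (2.70%) and of the neutrophil probes 2 of 28 (7.14%) were among the 670, beside 1.7% of all probes, the latter being Trem3 and Cd177. The part of myeloid cells in these levels was not tested.

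Reproductive and placental genes were among those that differed most between tumors 2 and 3. Stra8, the gene that retinoic acid switches on in germ cells about to enter meiosis, was at -5.94 in tumor 1, 1.15 in tumor 2 and -3.64 in tumor 3, and at -7.06, -7.54 and -6.35 in healthy skin. It was 27.8-fold higher in tumor 2 than in tumor 3. Prl2a1, a placental prolactin relative, went the other way, with -3.98, -2.79 and 2.08 in tumors 1, 2 and 3 and -7.19, -7.38 and -6.44 in healthy skin. It was 29.2-fold higher in tumor 3 than in tumor 2. Gtsf1l, a relative of a piRNA pathway factor, was at -5.60, -3.94 and -0.72, and the testis protease gene Prss46 at -5.89, -5.65 and -2.24.

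Of the cancer-testis and germ cell list, 4 of 86 probes (4.65%) were among the 670, beside 1.7% of all probes, and 60 of the 86 were detected on no healthy skin array. Only those 60 could be chosen, so the share is not read as an excess of the list. Besides Stra8 these were Lin28b, an RNA-binding inhibitor of let-7 maturation, at -5.55, -3.53 and -4.76 in tumors 1, 2 and 3, Zar1, an oocyte gene, at -5.80, -4.79 and -4.58, and Prm1, the sperm protamine, at -5.66, -4.79 and -5.20. Apart from Stra8 in tumor 2, and Lin28b in tumor 2, their levels were below the limit of tumor 1.

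Alox15, Aoc1, Cyp4a10, Cyp4a31, Fut9 and Clic6 were highest in tumor 2. Alox15, a lipoxygenase of macrophages and epithelia, was at -3.65 in tumor 1, 0.63 in tumor 2 and -4.51 in tumor 3, with healthy skin at -7.20, -7.49 and -6.51. It was 35.2-fold higher in tumor 2 than in tumor 3, and tumor 1 had a higher signal than the detected tumor 3. Aoc1, the diamine oxidase that breaks down histamine, was at -5.15, -0.16 and -4.56, and 21.2-fold higher in tumor 2. Cyp4a10 and Cyp4a31, neighbouring fatty acid hydroxylases on chromosome 4, were at -0.63 and -2.69 in tumor 2 and at -3.98 and -4.95 in tumor 3. The 2 probes share no run of more than 6 bases. For each of the 2 genes a further probe was detected on all 6 arrays, with tumor 2 again the highest tumor. Fut9, a fucosyltransferase of the Lewis X antigen, was at -4.06, -0.88 and -3.91 in tumors 1, 2 and 3, and the chloride channel gene Clic6 at -5.86, -0.46 and -3.54. B3gnt7, another glycosyltransferase, was highest in tumor 3, at -4.95, -4.67 and -2.49.

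Transcription factors of development included Msx3 and Foxf2, both highest in tumor 2. Msx3, a homeobox gene of the dorsal neural tube, was at -5.43, -0.36 and -5.09 in tumors 1, 2 and 3, and 26.6-fold higher in tumor 2 than in tumor 3. Healthy skin lay at -7.12, -7.26 and -5.42, so tumor 3 was less than 1 unit above the highest of them. A further Msx3 probe was detected on 2 tumor and 2 healthy skin arrays. Its level was -4.27, -1.69 and -3.32 in tumors 1, 2 and 3 and -1.77, -3.71 and -4.77 in healthy skin 1, 2 and 3. On that probe the groups overlapped. Foxf2, a forkhead factor of mesenchyme, was at -4.68, -1.38 and -3.88. Pax8, a factor of thyroid and kidney, was at -4.38, -4.93 and -4.60, with tumor 1 the highest. With Tbx20 above, these were 4 of 137 probes of the developmental factor list (2.92%), and none of the 46 probes of Hox genes was among the 670.

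Wt1, a zinc finger factor of kidney and mesothelium, was on no list. Its level was -3.96, -1.77 and -1.35 in tumors 1, 2 and 3, and -6.43, -7.04 and -6.52 in healthy skin. The signal in tumor 2 was at least 3.66-fold above tumor 1. Dmrta2, a doublesex-related factor of the developing brain, was at -4.17, -1.34 and -2.54 in tumors 1, 2 and 3, and higher in tumor 2 than in tumor 3.

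Of the probes that lacked tumor 1, AW061096, a transcript without a RefSeq symbol on chromosome 1, had the largest difference from tumor 1. It was at -5.57, -0.07 and -0.02 in tumors 1, 2 and 3 and at -4.89, -6.02 and -5.28 in healthy skin 1, 2 and 3, and it met the 2-unit criterion under all 5 settings. Tumor 1 lay within the range of healthy skin.

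Kcnj10, Mgam and Slc18a1 differed by less than 1 unit between tumors 2 and 3. Kcnj10, an inwardly rectifying potassium channel of glia and epithelia, was at -3.99, -1.20 and -1.48 in tumors 1, 2 and 3, with healthy skin at -6.43, -7.48 and -6.53. The signal in tumor 3 was at least 4.47-fold above tumor 1. Mgam, an intestinal maltase, was at -4.90, -1.71 and -1.60, and Slc18a1, a vesicular monoamine transporter, at -3.96, -1.84 and -2.34. Cfap206, a gene of motile cilia, was at -5.31, -2.05 and -1.12. For these 4 genes both detecting tumors were above the limit of tumor 1.

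Growth factors and plasma proteins followed. Gdf3, a TGF-beta family ligand, was at -4.06, -1.64 and -1.51 in tumors 1, 2 and 3 and at -6.05, -7.48 and -6.54 in healthy skin. A further Gdf3 probe was detected on all 6 arrays, at -0.20, -0.70 and -0.95 in the tumors and -1.03, -1.13 and 0.36 in healthy skin, where the groups overlapped. Hgf, the ligand of the receptor Met, was at -5.88, -3.99 and -2.95, and Gdf6 at -5.58, -4.00 and -2.61. F7, coagulation factor VII, was at -4.06, -2.02 and 0.05, and the complement gene Hc at -3.87, -2.56 and -0.79. A further F7 probe was detected on 3 tumor and 2 healthy skin arrays. Its level was -2.545, -1.878 and -0.133 in tumors 1, 2 and 3. In healthy skin 1, 2 and 3 it was at -1.741, -2.766 and -4.319, so the groups overlapped. Hgf, Gdf6, F7 and Hc were highest in tumor 3. Of the growth factor list, 4 of 138 probes (2.90%) were among the 670.

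Adam12, a membrane metalloprotease of mesenchyme and of several carcinomas, had 2 probes that lacked tumor 1. The first was at -3.81, -1.78 and -1.74 in tumors 1, 2 and 3, against -7.26 to -6.46 in healthy skin, and the other at -5.79, -4.06 and -3.73. Tumors 2 and 3 differed little for either. A further Adam12 probe was detected on all 6 arrays, at -2.38, -0.67 and 0.15 in tumors 1, 2 and 3 and at -1.40, -1.19 and -0.16 in healthy skin. The first 2 probes were chosen as lacking tumor 1, and both detecting levels of the second lay under the limit of tumor 1. On the further probe, which the choice did not take, tumor 1 was the lowest tumor, but the tumors and healthy skins overlapped. Fank1, a testis gene whose probes lie less than 7 kb away on the opposite strand, had 2 probes at -4.52 and -5.81 in tumor 1, -2.81 and -4.77 in tumor 2, and -2.48 and -4.30 in tumor 3.

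Myh3, the embryonic myosin heavy chain of developing and regenerating muscle, had 2 probes that were highest in tumor 3. They were at -5.43 and -4.89 in tumor 1, -2.67 and -2.84 in tumor 2, and -0.39 and -0.68 in tumor 3. Healthy skin lay at -7.37 to -5.37 for the first and -7.45 to -5.42 for the other. These were 2 of the 29 probes of the skeletal muscle markers, and 4 of the 29 were detected on no healthy skin array. The summed level of the 20 muscle marker genes was 6.71, 7.18 and 5.94 in tumors 1, 2 and 3 and 11.2 to 11.6 in healthy skin, so the list as a whole was lower in the tumors. Trim6 and Fbxl21 also had 2 probes each among those that lacked tumor 1, with tumors 2 and 3 less than 1 unit apart for all 4.

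Tumors 2 and 3 can be compared for the 621 probes that both detected, since the choice required that both were detected but not which was higher. Tumor 2 was higher for 359 and tumor 3 for 262, and 456 differed by less than 1 unit. A difference of at least 2 units was found for 43 probes, 24 of them higher in tumor 3 and 19 higher in tumor 2. The direction of all 43 was the same under the 5 scalings used, and 14 kept a difference of 2 units under every one. With 1 array for each tumor, this comparison has no replicate check.

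The share of probes included differed between gene families, beside 1.7% of all probes. Of 1499 probes of olfactory and vomeronasal receptors, 23 (1.53%) were among the 670, and all 23 lacked tumor 1. On no healthy skin array were 1239 of the 1499 detected, so the nearness to 1.7% is not read as an average share. The lower detecting level below is that of the 23 probes. Their lower detecting level ran from -5.84 to -3.05. Vmn1r42, Vmn1r43, Vmn1r44 and Vmn1r45, within chr6:89795101-89883083, were all higher in tumor 2, at -4.64, -3.45, -4.30 and -3.20, than in tumor 3, at -5.69, -5.21, -5.13 and -4.76. No vomeronasal pair outside the one shown above and Vmn1r199 with Vmn1r209 shared 20 bases. Vmn1r43 and Vmn1r45 shared a run of 19, as did Vmn1r207 and Vmn1r209, so these are not fully separate measurements. Among the 11 lists of cell type markers, 6 had no probe in the set (adipocyte, dendritic and Langerhans, endothelial, mast cell, melanocyte and Schwann cell). The B and plasma cell list had 1 of 23, Fcrla (4.35%). Of the adipocyte, endothelial and melanocyte probes, 0, 1 and 1 were detected on no healthy skin array, so few or none could be chosen. Of 517 probes of solute carriers 6 (1.16%) were included, of 687 of zinc finger genes 6 (0.873%) and of 67 of keratin-associated proteins 0. Of these, only 131, 76 and 1 were detected on no healthy skin array and could be chosen. The same limit holds for every list or family share given here, so none is read as an excess or a lack. The share was 3.39% for potassium, sodium and calcium channels (8 of 236), 5.22% for matrix metalloproteinases and ADAMs (6 of 115), 3.25% for cytochrome P450 genes (4 of 123) and 3.80% for serpins (3 of 79). The list of proteases and their inhibitors, which overlaps these, had 5 of 81 (6.17%).

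RefSeq symbols were found for 487 of the 670 probes. By RefSeq class 429 (64.0%) were of protein-coding genes, against 69.8% of all 39430 probes, and 44 (6.57%) of long non-coding RNA, against 3.78%. The median GC content was 41.7% for both the 670 and all probes. Single spots carried 664 of the 670 probes, so most levels rest on 1 spot per array. Serpinb1b, Serpinb9c and Serpinb9d, protease inhibitors within chr13:33185999-33295808, were all highest in tumor 2, at -2.98, -2.02 and -1.41, against -3.91, -3.91 and -3.09 in tumor 3. In all 162 of the 652 probes with a position lay within 200 kb of another of them, in 69 stretches.

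For many of these genes another probe was detected in healthy skin. Of 480 genes with a symbol, 191 had a further probe outside the set, and for 131 of these (68.6%) a further probe was detected on at least 1 healthy skin array. For 99 genes (51.8%) it was detected on all 6 arrays, and for 41 on none. Counted by probe, 122 of the 252 further probes were detected on all 6 arrays. Of all 29204 probes with a symbol outside the set, 17213 (58.9%) were, so such detection was not particular to these genes. Only 7 genes had a further probe on all 3 tumor arrays and no healthy one, among them Lin28b and Klra5.

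In the fit of tumors against healthy skin over all 55681 probes (limma, Benjamini-Hochberg adjusted p under 0.05), 1679 probes (3.02%) were called higher in tumors and 2858 lower. With median scaling the split was 3256 higher and 2037 lower. Of the 670 probes 122 were called higher and 0 lower, with 346 at an unadjusted p under 0.05. Since the same arrays chose the probes, nothing is read from this count. The median tumor minus healthy difference was 1.35 log2 units over the 670 and -0.21 over all probes, and the former was -0.16 with normexp background correction, so its direction depended on how background was treated. Leaving out single arrays changed the count, to 13 without healthy skin 2, 19 without healthy skin 1, 41 without healthy skin 3, 35 without tumor 2, 59 without tumor 3 and 219 without tumor 1.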

How the data were processed

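RNA (0.2 µg per sample, integrity number 9) was labelled with Cy3 and hybridised to 1-colour Agilent arrays, all 6 on 1 slide. The deposited files hold background-subtracted intensity values and detection marks made with Feature Extraction 10.7.3.1, per the file headers, and probe positions are in build mm9. The authors' deposited series table holds log2 values with array medians of 6.41 to 6.43. The submitters' processing notes name limma without a version, and how that table was background-treated and centred is not given in the sources used here. Precision is limited by the number of arrays.

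Control spots were left out, spots of 1 probe were averaged, outlier spots were dropped, and the level of a probe was its processed signal on the log2 scale less the 75th percentile of that array. No spot was saturated. A missing array has only a bound: "at least N-fold" sets the lower detecting tumor against the missing array's own signal or, where higher, the dimmest signal marked well above background there. Names came through accession (423 probes), symbol (53) or synonym (11) from the RefSeq table of assembly GRCm38.p6. The fit of tumors against healthy skin was two-sided, by lmFit and eBayes of limma 3.58.1 (R 4.3.3), without a block. In simulated data it recovered 0 of 50 probes changed by 1 log2 unit and 1 of 50 changed by 2. At 4 and 8 log2 units it recovered 30 and 47 of 50, with 1 false call, so it misses most small changes.

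The probes and gene lists were chosen with earlier results of these data known. Named probes were, per missing tumor, the 10 with the highest lower detecting level (at most 2 per symbol stem), genes with 2 probes of a class, and list members whose lower detecting level was at least 2 units above healthy skin. Probes 2 units apart between tumors 2 and 3, AW061096, remaining list members, and neighbours or relatives of these were added after their values were seen. Alternatives were other scalings, normexp with an offset of 50, the authors' table, other detection criteria, a detection filter, a variance trend, a replicate block and leaving out each array. A result that this choice names is not reported here.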

Additional observations from a re-analysis of the deposited data

How the results depend on the processing

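The detection criterion decides which probes are included. With a significantly positive signal in place of the mark, 467 probes qualified, 44 of them among the 670, and 307, 77 and 83 lacked tumor 1, 2 and 3. With one common level for all arrays 293 qualified, 43 of them among the 670, and 126, 63 and 104 lacked tumor 1, 2 and 3. Requiring every spot, or leaving out outlier spots, gave 671 and 670. Without 1 array the number ran from 259 (without tumor 2) to 922 (without healthy skin 2), and it was 264 without tumor 3.

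The count of the 670 called higher, 122 in the limma fit, was 210 with median scaling, 246 among probes detected on at least 2 arrays, 4 with normexp and 13 to 219 without 1 array. All called probes, 4537, became 8204 with the authors' values, 9183 with the detection filter, 8582 with a variance trend and 1104 to 5724 without 1 array. With the replicate number as a block 38 of the 670 and 1820 in all were called. Same-numbered arrays correlated by 0.075, 0.06 and -0.026 after removing group means. Other pairs of a healthy skin and a tumor array correlated by -0.175 to 0.088. With 3 arrays per group, these values cannot decide whether the numbers pair the arrays.

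The median tumor minus healthy difference of the 670 was 1.72 with median scaling, 1.66 with quantile normalization, 0.57 with the authors' values and reversed to -0.16 with normexp. The same median over all probes was 0.15, 0.01, -0.00 and -0.50. The number 2 units apart was 3 with normexp and 5 with the authors' values. The cause of these changes was not tested. Levels near background limit the description most: 426 of the 670 probes had both detecting levels under the lowest detectable level of tumor 1.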
